A study of Mus musculus with 6 samples.

Results

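RNA from femoral bone was compared between male mice that ran on a wheel and male mice that did not, and 34 genes of monocytes and resident macrophages were followed. The genes were chosen by symbol with earlier results of these data known, and all 34 were found among the 55484 genes of the deposited tables. They comprise 21 tissue macrophage genes, 4 monocyte genes and 9 genes that monocytes, macrophages and often neutrophils share. The wheel running group (ND/WCR in the titles) held 3 wild-type C57BL/6 mice kept singly on normal chow with free access to a running wheel for 6 weeks. The sedentary group (ND/SED) held 3 wild-type C57BL/6 mice on the same diet, kept singly for 6 weeks in cages without a wheel. Mice of both groups were 6 weeks old at the start and 12 weeks old when the femora were taken. The labels used here do not say whether marrow was flushed out or how muscle and periosteum were handled.

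Monocytes arise in the bone marrow from myeloid precursors and enter the blood, while resident macrophages live in the tissue and depend on signalling through the CSF1 receptor. In marrow, resident macrophages sit at the centre of erythroblastic islands, where they engulf the nuclei that red cell precursors expel and recycle iron from haem. The haemoglobin scavenger receptor CD163, haem oxygenase HMOX1, the iron exporter ferroportin (Slc40a1) and the adhesion molecule VCAM1 are known parts of that work, and the transcription factor SPIC is known in mice to be needed for iron-recycling macrophages. Classical mouse monocytes are known for high surface Ly6C and for the chemokine receptor CCR2.

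For each gene the tables give 1 FPKM value per group (sequenced fragments per transcript length and library depth) that pools 3 libraries, and the authors added a lower and an upper bound. Values of single mice, and the spread between them, are therefore not known. A gene is called here where its q-value in the authors' deposited table, a p-value adjusted over all tested genes, lies under 0.05. A log2 fold is log2(FPKM + 0.1) in wheel running mice minus the same in sedentary mice, so the change of genes with low FPKM is understated. Library depth was only estimated, from the size of 1 fragment in the lowest values, taking a group value as the mean of 3 libraries. Estimates ran from about 13800000 to 17400000 fragments over 224 genes in the wheel running group. In the sedentary group they ran from about 14300000 to 16400000 fragments over 221 genes. Only estimates inside a fixed window were kept, which limits the ranges and the numbers of genes. Each range is a spread of estimates between genes, and the depths of the single libraries are not known. Bone markers were present, among them osteocalcin (Bglap) at 3184 FPKM in wheel running and 3157 FPKM in sedentary mice, and so were neutrophil markers, with S100a9 at 17115 FPKM in wheel running and 20406 FPKM in sedentary mice. In bulk RNA such as this, a change in the number of cells of a type and a change in RNA per cell cannot be told apart.

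The medians of the tissue macrophage and the monocyte genes lay on opposite sides of 0. The authors' test covered 33 of the 34 genes, leaving out the scavenger receptor gene Marco, which stood at 0.548 FPKM in wheel running and 0.376 FPKM in sedentary mice. Among the 33, Cd163 and Cd5l were called in the authors' deposited table, 2 genes, both higher in wheel running mice. That is 6.06% of the tested members, where 0.941% of all 15508 tested genes were called in either direction and 0.445% were called higher. Among the 20 tested tissue macrophage genes 16 had a positive log2 fold, with a median of 0.16, and 18 did once both groups had been scaled to equal total FPKM (called rescaled from here on), which raises log2 folds by about 0.04. All 4 monocyte genes had a negative one, with a median of -0.14, and 7 of the 9 shared genes did (6 when rescaled), with a median of -0.12. Over all tested genes the median log2 fold was -0.01, and 48.2% were positive (59.3% when rescaled). At an unadjusted p under 0.05 the authors' table held 7 members, or 21.2%, against 5.65% of all tested genes. They were Cd163, Cd5l, Hmox1, Vcam1, Mertk and Lyve1, with a positive log2 fold, and Lyz2, with a negative one. Members were chosen with earlier results of these data known, so their shares beside those of all tested genes are described and not tested. The intervals of the groups overlapped for every one of the 34 genes, the called ones included.

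**Figure D1:**
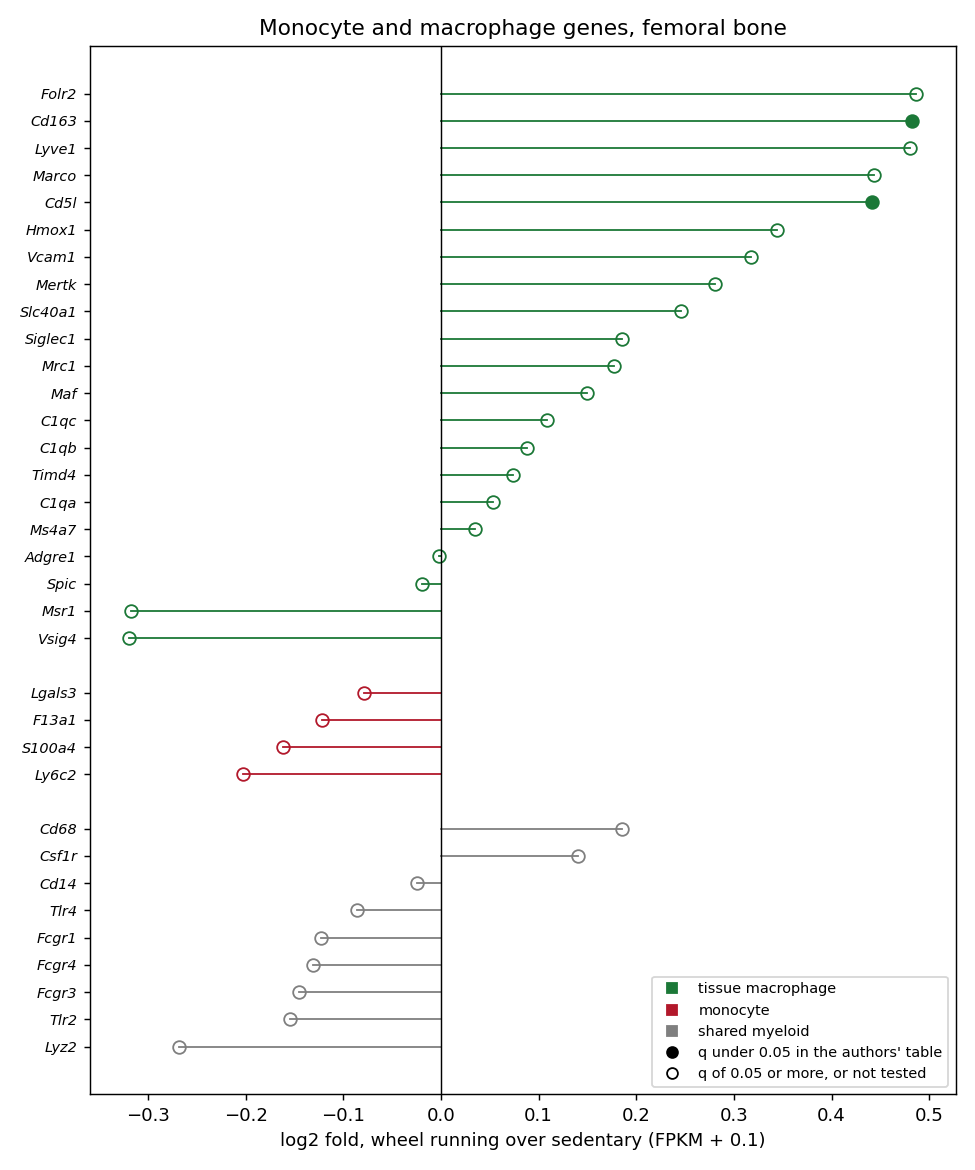
Log2 fold of wheel running over sedentary mice (FPKM + 0.1) for the 34 genes, by group and in order of size. Filled points mark the 2 genes with q under 0.05 in the authors' table, Cd163 and Cd5l, and the 4 monocyte genes all lie left of 0.

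Cd163 was the member with the smallest q. It encodes the receptor by which macrophages take up haemoglobin bound to haptoglobin, and it lies on chromosome 6 from 124304656 to 124330527 (plus strand, GRCm38). Its level was 28.0 FPKM (interval 22.6 to 33.4) in wheel running mice and 20.0 FPKM (16.1 to 24.0) in sedentary mice. The level was 1.40-fold higher in wheel running mice, a log2 fold of 0.48, with p = 0.0001 and q = 0.0133 in the authors' deposited table. Cd5l encodes a secreted scavenger protein of macrophages, also called AIM, and lies on chromosome 3 from 87357881 to 87371073 (plus strand). It stood at 32.7 FPKM (26.2 to 39.1) in wheel running mice and 24.0 FPKM (19.1 to 28.9) in sedentary mice. This was a 1.36-fold higher level, a log2 fold of 0.44, with p = 0.00015 and q = 0.0188 in the authors' deposited table. For both genes the upper end of the sedentary interval reached past the lower end of the wheel running interval, but lay below the wheel running value for Cd163 and for Cd5l. Neither gene overlaps an exon of another annotated gene, and at most 0.1% of the stretches of 50 bases in their longest transcripts occur in transcripts of another gene.

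The 250 bases before the start of both called genes and of the monocyte genes Ly6c2 and F13a1 are shown because they are the called members and the monocyte genes described in most detail. They are RefSeq promoter sequence of GRCm38.p6, 5′ to 3′ on the strand of the gene, chr6:124304401-124304650 (plus) for Cd163, chr3:87357631-87357880 (plus) for Cd5l, chr15:75111972-75112221 (minus) for Ly6c2 and chr13:37050245-37050494 (minus) for F13a1. Capitals mark matches, on either strand, to the core of the PU.1 motif (GAGGAA), the AP-1 motif (TGANTCA), a C/EBP motif (TTGCNNAA) and the Maf recognition element (TGCTGA and its reverse complement with 1 or 2 bases between them).
Cd163: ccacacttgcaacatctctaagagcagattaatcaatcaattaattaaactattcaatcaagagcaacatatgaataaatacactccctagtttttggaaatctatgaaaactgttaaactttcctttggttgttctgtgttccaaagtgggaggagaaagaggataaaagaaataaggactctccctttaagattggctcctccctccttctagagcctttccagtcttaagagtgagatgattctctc
Cd5l: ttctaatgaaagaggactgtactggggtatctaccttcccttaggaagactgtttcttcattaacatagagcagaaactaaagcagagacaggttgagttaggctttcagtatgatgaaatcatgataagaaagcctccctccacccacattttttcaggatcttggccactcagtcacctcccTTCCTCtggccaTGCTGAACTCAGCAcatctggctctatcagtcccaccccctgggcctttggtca
Ly6c2: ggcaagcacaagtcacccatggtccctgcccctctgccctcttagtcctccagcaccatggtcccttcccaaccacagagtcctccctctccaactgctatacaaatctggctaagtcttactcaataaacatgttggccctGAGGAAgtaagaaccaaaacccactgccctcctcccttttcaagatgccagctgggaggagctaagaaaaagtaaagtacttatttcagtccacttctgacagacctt
F13a1: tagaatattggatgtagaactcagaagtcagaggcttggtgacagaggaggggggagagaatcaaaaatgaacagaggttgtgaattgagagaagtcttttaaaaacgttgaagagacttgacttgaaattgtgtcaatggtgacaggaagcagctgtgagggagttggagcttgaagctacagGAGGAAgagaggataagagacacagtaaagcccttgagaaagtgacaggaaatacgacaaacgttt
PU.1 is the master regulator of the myeloid lineage, and Maf proteins are transcription factors of macrophages. The window of Cd5l held 1 PU.1 core and, beginning 54 bases before the start, 1 Maf element, with no overlap between them. Such a Maf element was found in 4 of 32851 promoter windows in the table (0.0122%); the other windows belong to the predicted genes Gm33479, Gm52309 and Gm5600. The Maf element was added to the search, with any bases allowed in its gap, after the Cd5l sequence had been read. Its share of windows is therefore no measure of how unusual the window of Cd5l is. Ly6c2 and F13a1 held 1 PU.1 core each, and the window of Cd163 held none of the 4 motifs. Of the 34 members 22 had a window in the table, and 12 of these held a PU.1 core, against 23.3% of all windows. The AP-1 motif was in 1 member window, that of Cd68, against 6.75% of all windows, and the C/EBP motif in those of Cd68 and Fcgr3, against 9.56%. The table's start lies 1992 bases downstream of the annotated gene start for Spic, 6109 bases for Lgals3 and 5532 bases for Fcgr3. A match describes letters in a window and is no evidence of binding.

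Other receptors for uptake were spread over both signs. Mertk, a receptor for dying cells, stood at 18.2 FPKM in wheel running and 14.9 FPKM in sedentary mice, a log2 fold of 0.28 that was not called (q = 0.553 in the authors' deposited table). Siglec1, a sialic acid receptor of macrophages, had 7.39 FPKM in wheel running and 6.48 FPKM in sedentary mice. Mrc1, the mannose receptor, had 45.3 FPKM in wheel running and 40.1 FPKM in sedentary mice. None of these passed the test, although all 3 had positive log2 folds. Timd4, a receptor for phosphatidylserine on dying cells, was low in both groups, at 1.77 FPKM in wheel running and 1.68 FPKM in sedentary mice. The folate receptor gene Folr2 had a log2 fold of 0.49, the largest of the members with the pseudocount of 0.1 (with a pseudocount of 1 it was 0.36, below the 0.47 of Cd163), and stood at 2.82 FPKM (0 to 5.95) in wheel running and 1.99 FPKM (0 to 4.50) in sedentary mice, with p = 0.432 and q = 0.9997 in the authors' deposited table. Lyve1, a hyaluronan receptor that lymphatic endothelium also makes, had 2.09 FPKM (1.13 to 3.04) in wheel running and 1.47 FPKM (0.796 to 2.14) in sedentary mice, a log2 fold of 0.48 with p = 0.0494 and q = 0.883 in the authors' deposited table. The intervals of both genes overlapped over most of their length.

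The most negative members were also uptake receptors. Vsig4, a complement receptor of resident macrophages, stood at 0.853 FPKM (0.180 to 1.53) in wheel running and 1.09 FPKM (0.385 to 1.79) in sedentary mice, a log2 fold of -0.32 with p = 0.338 and q = 0.9997 in the authors' deposited table. Msr1, a class A scavenger receptor, stood at 3.44 FPKM (1.82 to 5.05) in wheel running and 4.31 FPKM (2.51 to 6.10) in sedentary mice, again a log2 fold of -0.32, with p = 0.154 and q = 0.9997 in the authors' deposited table. Both had low levels and wide intervals, and neither was called. Over the 11 receptor and scavenger genes, 8 of 10 tested had a positive log2 fold, with a median of 0.23 and 2 called. Their summed level was 143 FPKM in wheel running and 116 FPKM in sedentary mice.

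**Figure D2:**
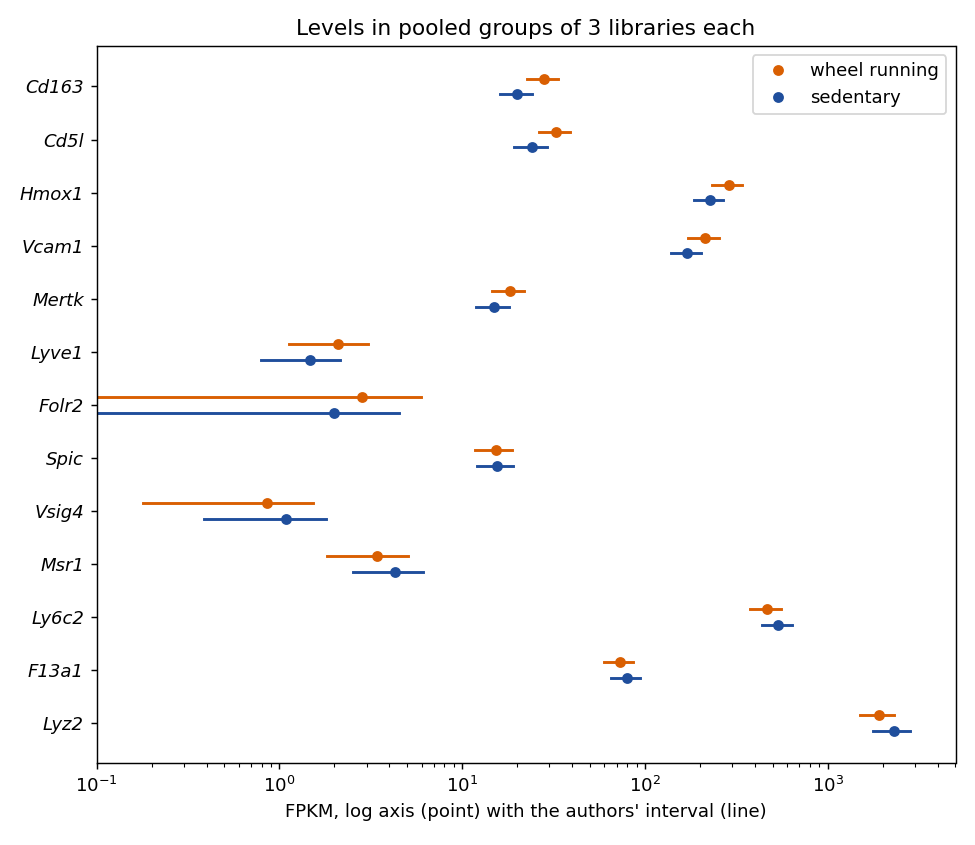
Level in FPKM (log axis) of 13 members in wheel running and sedentary mice, with points for the pooled value of 3 libraries and lines for the authors' interval; lines that touch the left edge run on below 0.1 FPKM. The intervals of both groups overlap for each gene, with Cd163, Cd5l, Hmox1 and Vcam1 to the right in wheel running mice and Ly6c2, F13a1 and Lyz2 to the left.

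Cd163, described above, was called. Of 4 further genes of iron recycling and of the erythroblastic island, Hmox1, Vcam1, Slc40a1 and Spic, 3 had a positive log2 fold (4 when rescaled). None of the 4 was called. Hmox1, which opens the haem ring and releases its iron, was the third most abundant member and lies on chromosome 8 from 75093621 to 75100589 (plus strand). It had 287 FPKM (234 to 339) in wheel running and 226 FPKM (185 to 267) in sedentary mice, 1.27-fold and a log2 fold of 0.34, with p = 0.00105 and q = 0.0890 in the authors' deposited table. With q under 0.1 Hmox1 would be the third call, where 1.23% of all tested genes pass. Vcam1, the adhesion molecule that ties red cell precursors to the macrophage, had 213 FPKM in wheel running and 171 FPKM in sedentary mice, a log2 fold of 0.32 with q = 0.247 in the authors' deposited table. Slc40a1, which exports iron from the cell, had 126 FPKM in wheel running and 106 FPKM in sedentary mice, a log2 fold of 0.25 with q = 0.907 in the authors' deposited table. Spic, in contrast, was close to equal, at 15.3 FPKM (11.8 to 18.8) in wheel running and 15.5 FPKM (12.0 to 19.1) in sedentary mice, a log2 fold of -0.02 that turned to 0.023 when rescaled to the same total, with p = 0.885 and q = 0.9997 in the authors' deposited table. Hmox1 stood 18.7 times above Spic in wheel running and 14.6 times in sedentary mice, both as FPKM and so per length. Vcam1, Hmox1, Slc40a1, Lyve1 and Mrc1 are also expressed by stromal or endothelial cells, and without these 5 genes the median log2 fold of the tissue macrophage genes was 0.09 in place of 0.16. In the same tables all 5 marrow stroma markers had a positive log2 fold (median 0.27), with a summed level of 1114 FPKM in wheel running and 967 FPKM in sedentary mice. Of these markers 2, Lepr and Adipoq, were called higher, where 0.445% of all tested genes were. Among 6 endothelial markers 4 were positive (5 when rescaled; median 0.13; 108 FPKM in wheel running and 101 FPKM in sedentary mice), and their part in these values was not tested.

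The 3 chains of complement C1q, which assemble into 1 molecule, had small positive log2 folds. C1qa had 139 FPKM in wheel running and 134 FPKM in sedentary mice, and C1qb had 116 FPKM in wheel running and 109 FPKM in sedentary mice. C1qc had 107 FPKM in wheel running and 99.5 FPKM in sedentary mice. None was called, and their log2 folds ran from 0.05 to 0.11. The ratio of C1qa to C1qc was 1.29 in wheel running and 1.35 in sedentary mice. The remaining tissue macrophage genes also had small log2 folds. Maf, a transcription factor of macrophages, had 18.8 FPKM in wheel running and 16.9 FPKM in sedentary mice, and Ms4a7, a membrane protein of macrophages, 9.88 FPKM in wheel running and 9.64 FPKM in sedentary mice. Adgre1, which encodes the macrophage surface marker F4/80, had nearly equal values in both groups, at 24.0 FPKM (12.6 to 35.4) in wheel running and 24.1 FPKM (14.0 to 34.2) in sedentary mice, and its log2 fold of -0.0023 turned to 0.040 when rescaled. Cd163 stood at 1.17 times the level of Adgre1 in wheel running and 0.831 times in sedentary mice.

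The monocyte genes were abundant, and none was called. Ly6c2, which encodes the Ly6C antigen of classical monocytes and lies on chromosome 15 from 75108158 to 75111970 (minus strand), had 466 FPKM (377 to 555) in wheel running and 536 FPKM (435 to 638) in sedentary mice. Its log2 fold was -0.20, with p = 0.0672 and q = 0.959 in the authors' deposited table. F13a1, which encodes the A subunit of coagulation factor XIII and lies on chromosome 13 from 36867178 to 37050244 (minus strand), had 73.0 FPKM (59.6 to 86.5) in wheel running and 79.4 FPKM (64.8 to 94.1) in sedentary mice. The log2 fold of F13a1 was -0.12, with p = 0.252 and q = 0.9997 in the authors' deposited table. S100a4, a calcium-binding protein also found in fibroblasts and neutrophils, had 174 FPKM in wheel running and 194 FPKM in sedentary mice. Lgals3, the gene of the lectin galectin-3, had 148 FPKM in wheel running and 156 FPKM in sedentary mice. In all 4 the value was lower in wheel running mice by less than the width of the authors' intervals. Summed over the group, tissue macrophage genes stood at 1198 FPKM in wheel running and 1027 FPKM in sedentary mice, while monocyte genes stood at 861 FPKM in wheel running and 967 FPKM in sedentary mice. The level of Cd163 was 0.0601 of that of Ly6c2 in wheel running and 0.0373 in sedentary mice. The medians of both groups differed by 0.30 (log2), a difference that was not tested, since the tables hold no single mice.

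**Figure D3:**
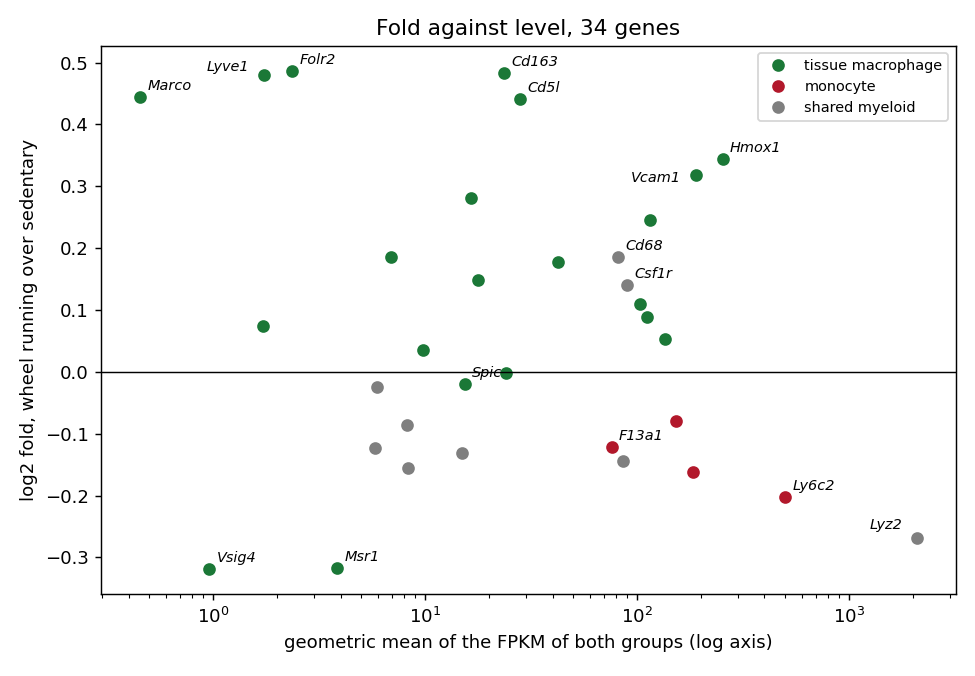
Log2 fold of wheel running over sedentary mice against the geometric mean of the FPKM of both groups (log axis) for the 34 genes. Marco, Folr2, Lyve1, Vsig4 and Msr1 have some of the larger folds in size but lie under 5 FPKM, and the abundant genes Ly6c2 and Lyz2 lie under 0.

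The shared genes had negative log2 folds, apart from Cd68 and Csf1r. Cd68, a lysosomal protein of phagocytes and osteoclasts, had 87.4 FPKM in wheel running and 76.8 FPKM in sedentary mice, and Csf1r, the receptor for the macrophage growth factor CSF1, had 94.8 FPKM in wheel running and 86.0 FPKM in sedentary mice. Neither was called, and the interval of Csf1r was wide (47.4 to 142 FPKM in wheel running and 50.2 to 122 FPKM in sedentary mice). Osteoclasts express both genes, and 9 of 10 osteoclast markers had a positive log2 fold, none called, with a summed level of 1606 FPKM in wheel running and 1473 FPKM in sedentary mice; their part was not tested. Lyz2, the lysozyme of macrophages and neutrophils, was the most abundant member, with 1904 FPKM (1492 to 2315) in wheel running and 2293 FPKM (1779 to 2806) in sedentary mice. Its log2 fold was -0.27, with p = 0.0371 and q = 0.794 in the authors' deposited table. The Fc receptors for IgG had like values. Fcgr3 had 81.8 FPKM in wheel running and 90.4 FPKM in sedentary mice, Fcgr4 14.2 FPKM in wheel running and 15.6 FPKM in sedentary mice, and Fcgr1 5.59 FPKM in wheel running and 6.09 FPKM in sedentary mice. Their log2 folds lay between -0.14 and -0.12. The receptors for bacterial products were low. Tlr2 had 7.91 FPKM in wheel running and 8.82 FPKM in sedentary mice, Tlr4 7.999 FPKM in wheel running and 8.499 FPKM in sedentary mice, and Cd14, the co-receptor for lipopolysaccharide, 5.89 FPKM in wheel running and 5.99 FPKM in sedentary mice, a log2 fold of -0.02 that turned to 0.018 when rescaled to the same total. None of the 9 shared genes was called. Neutrophils express Lyz2, S100a4, Lgals3, Tlr2, Cd14 and Fc receptors as well, and all 14 neutrophil markers (all but 1 when rescaled to the same total) had a negative log2 fold, none called (median -0.17), with a summed level of 47174 FPKM in wheel running and 55282 FPKM in sedentary mice. Their part in the negative folds of the monocyte and shared genes was not tested.

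Some members share sequence with another gene. Of the stretches of 50 bases in the longest transcript, 12.6% were shared with Ly6c1 for Ly6c2, 15.4% with Lyz1 for Lyz2, 12.8% with Fcgr2b for Fcgr3 and 56.3% with the overlapping gene Gm42674 for S100a4, so fragments could be assigned to either gene. Ly6c1, which endothelial cells also express, ran the other way from Ly6c2, at 57.8 FPKM (42.8 to 72.9) in wheel running and 42.0 FPKM (29.5 to 54.5) in sedentary mice, and was not called (q = 0.303 in the authors' deposited table). Exons of Vcam1, Maf, Folr2, F13a1 and Csf1r overlap a gene on the opposite strand.

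Other genes of the same pathways, in lists of 6 to 15 tested genes each, gave 2 calls higher and 1 lower. Over all tested genes 0.445% were called higher and 0.497% lower. Among 12 further classical monocyte genes 8 had a negative log2 fold (7 when rescaled; median -0.11), and 1 was called, lower. It was Ccr2 (chromosome 9, 124101950 to 124113557, plus strand), the receptor for CCL2 by which monocytes leave the marrow, at 42.2 FPKM (34.2 to 50.2) in wheel running and 57.3 FPKM (46.5 to 68.1) in sedentary mice. The level was 0.736 of that in sedentary mice, a log2 fold of -0.44, with p = 0.0001 and q = 0.0133 in the authors' deposited table, where 0.497% of all tested genes were called lower. The intervals overlapped. Chil3, a chitinase-like protein and the most abundant gene of that list, had 1049 FPKM in wheel running and 1086 FPKM in sedentary mice. Ly6c1, described above, is also on that list and was 1 of its 4 positive genes. The log2 fold of Ly6c1, 0.46, was the largest of the 12 in size, and it was not called. Of 9 non-classical monocyte genes 4 were positive, namely Nr4a1, Ace, Treml4 and Eno3 (median of the 9 -0.02, and 0.02 when rescaled to the same total). Eno3, which encodes the muscle form of enolase, had 87.6 FPKM in wheel running and 72.3 FPKM in sedentary mice, and was not called. All 7 skeletal muscle markers were positive too (median 0.35), and their part in the value of Eno3 was not tested. Which cells the RNA of the 9 non-classical monocyte genes came from was not tested. Treml4 was the 1 called, higher, at 1.35 FPKM (0.0422 to 2.65) in wheel running and 0.167 FPKM (0 to 0.663) in sedentary mice, a log2 fold of 2.44 with q = 0.0428 in the authors' deposited table. It was put on the list with its result known, and the other listed genes were also chosen with earlier results of these data known. The intervals of Treml4 overlapped, and its test statistic of 1.34 was small beside that of Cd163 (2.42), Cd5l (2.17) and Ccr2 (-2.29). Cx3cr1, the fractalkine receptor of these monocytes, had 7.34 FPKM in wheel running and 9.51 FPKM in sedentary mice, and Pglyrp1, a peptidoglycan-binding protein that neutrophils also make, had 393 FPKM in wheel running and 438 FPKM in sedentary mice; neither was called.

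Genes for the uptake of dying cells had mostly positive log2 folds. Of 10 tested, 9 had a positive log2 fold (median 0.18), and Gas6, the ligand that bridges phosphatidylserine to MERTK and AXL, was called higher. Over all tested genes 0.445% were called higher. Which cells made the RNA of these genes cannot be told from bulk RNA. All 5 marrow stroma markers (median 0.27) and 4 of 6 endothelial markers were positive as well, and their part here was not tested. Stab2, with a log2 fold of -0.16, is on both the uptake and the endothelial list. Gas6 (chromosome 8, 13465374 to 13494490, minus strand; an exon overlaps Tmem255b on the opposite strand) had 125 FPKM (102 to 148) in wheel running and 95.9 FPKM (78.4 to 113) in sedentary mice, 1.30-fold and a log2 fold of 0.38, with q = 0.0283 in the authors' deposited table. Tyro3, a receptor of the same family as MERTK, had a log2 fold of 0.60 at 1.32 FPKM in wheel running and 0.832 FPKM in sedentary mice, and was not called. Of 12 tested genes for iron and haem handling 8 were positive (median 0.02) and none was called. The ferritin light chain gene Ftl1 was the most abundant of them, at 2113 FPKM in wheel running and 1996 FPKM in sedentary mice. Trf, the iron carrier transferrin, had 169 FPKM in wheel running and 139 FPKM in sedentary mice, and Tfrc, its receptor on red cell precursors, 210 FPKM in wheel running and 248 FPKM in sedentary mice. Of the 8 matched erythroid markers 4 were positive, 7 when rescaled to the same total, and none was called. Their summed level was 9578 FPKM in wheel running and 9102 FPKM in sedentary mice. Tfrc is on both the iron and the erythroid list.

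The signalling partners of the Fc and toll-like receptors had negative log2 folds, and none was called. All 6 genes of Fc receptor signalling had negative log2 folds (median -0.16). Tyrobp, an adaptor of activating receptors in myeloid cells, had 452 FPKM in wheel running and 518 FPKM in sedentary mice, and the inhibitory receptor gene Fcgr2b had 48.2 FPKM in wheel running and 57.2 FPKM in sedentary mice. All 8 toll-like receptor partners were negative too (median -0.16). Ly96, which encodes the MD-2 subunit that binds lipopolysaccharide with TLR4, had 5.81 FPKM (3.00 to 8.62) in wheel running and 8.87 FPKM (5.21 to 12.5) in sedentary mice, a log2 fold of -0.60 with q = 0.634 in the authors' deposited table. Tlr6 had 4.50 FPKM in wheel running and 6.09 FPKM in sedentary mice, and Lbp, which carries lipopolysaccharide to CD14, had 27.9 FPKM in wheel running and 30.8 FPKM in sedentary mice. Complement partners were mixed, with 5 of 8 positive (median 0.09) and none called. C3, the central complement protein, had 82.9 FPKM in wheel running and 92.7 FPKM in sedentary mice, and Calr, a chaperone that binds C1q, had 253 FPKM in wheel running and 282 FPKM in sedentary mice.

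Growth factors and regulators of the lineage showed no call among 15 tested, with 9 positive (10 when rescaled) and a median log2 fold of 0.04. Cebpb, a transcription factor of monocytes, had 54.8 FPKM in wheel running and 44.4 FPKM in sedentary mice, and Csf2rb, a shared receptor chain for GM-CSF, had 32.2 FPKM in wheel running and 39.5 FPKM in sedentary mice. Id3, a regulator of macrophage and lymphocyte development, had 123 FPKM in wheel running and 104 FPKM in sedentary mice, and Csf2ra, the other chain of the GM-CSF receptor, had 101 FPKM in wheel running and 121 FPKM in sedentary mice. These folds, up to 0.30 in size, came with wide intervals for Csf2rb (13.6 to 50.8 FPKM in wheel running and 16.3 to 62.7 FPKM in sedentary mice). Dendritic cell markers, a further myeloid type, were negative in 6 of 7 tested genes (5 when rescaled; median -0.18) and none was called. B lineage markers were negative in all 8 (median -0.15), and T and NK cell markers positive in 4 of 6 (5 when rescaled, median 0.20). Skeletal muscle markers were positive in all 7 (median 0.35, 3 called higher) and bone markers in all 5 (median 0.24, 2 called higher). Over all tested genes 0.445% were called higher.

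**Figure D4:**
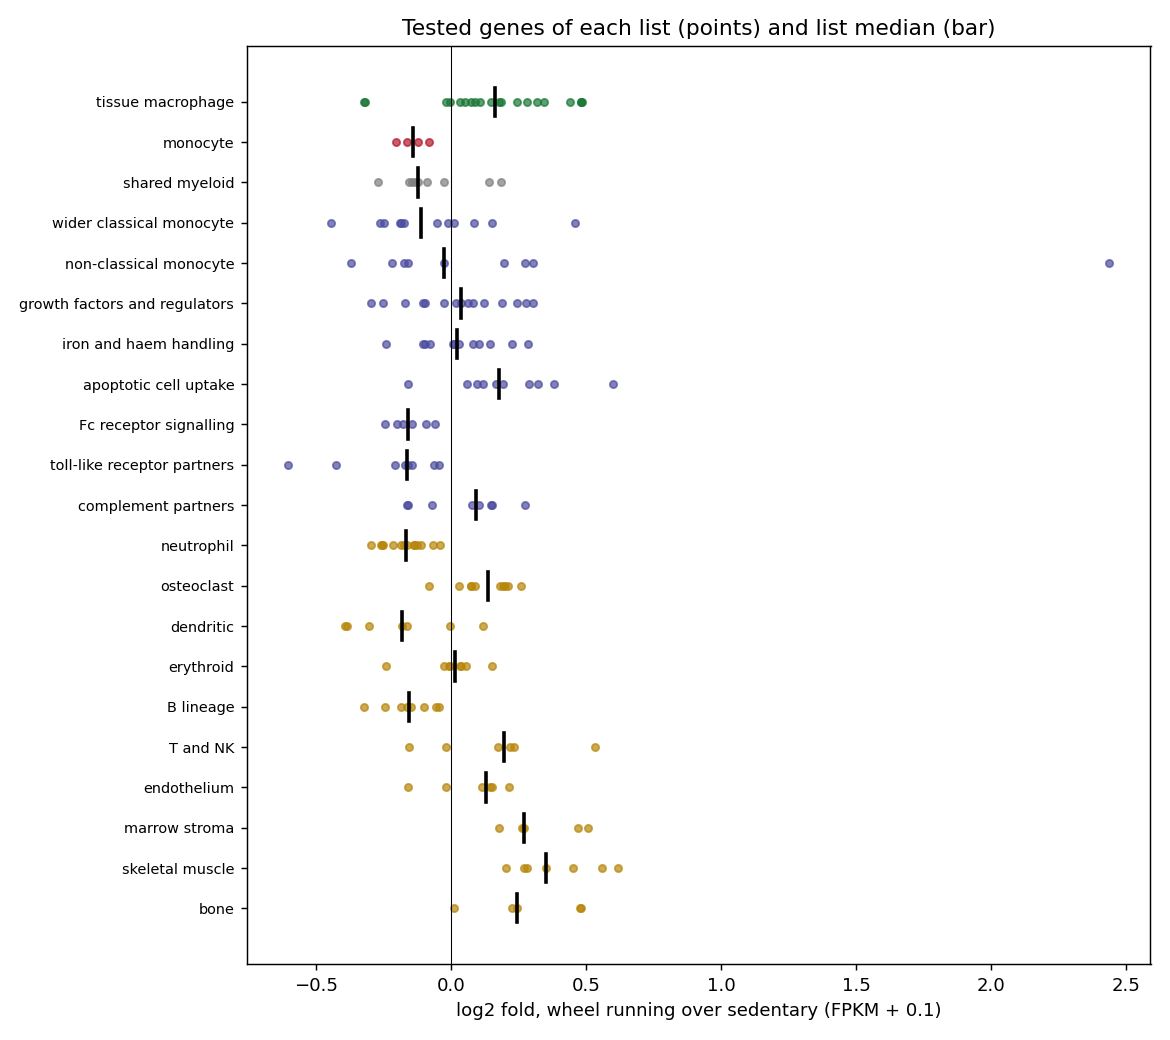
Log2 fold of wheel running over sedentary mice (FPKM + 0.1) of each tested gene (points) and the median (bar) for the 3 member groups at the top, 8 lists of pathway genes and 10 lists of other cell types. The tissue macrophage, apoptotic cell uptake, marrow stroma, muscle and bone medians lie right of 0, and the monocyte, Fc receptor signalling, toll-like receptor and neutrophil medians left of it.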

How the data were processed

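Libraries of polyadenylated RNA were made with a strand-specific kit, per the labels' protocols, and were processed, per the submitters' processing notes, with Cufflinks 2.2.1, HISAT2 2.2.1, SAMtools 1.10 and Trimmomatic 0.39 on GRCm38. The notes list the tools but not what each was used for. The use of strand in counting is not stated there. The authors deposited 1 FPKM per group and an interval of unstated level, and, per gene, a log2 fold, a test score and p-values and q-values. The smallest deposited p-value is 5e-05. The authors tested 15508 genes. Single libraries have 0 columns, which left no way to test across mice, so the authors' q-value under 0.05 was the call.

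From these values log2 folds with a pseudocount of 0.1, medians and counts were computed (Python 3.11.15, pandas 2.3.3). Members and lists were chosen with earlier results of these data known, so lists are described and not tested. Genes were named by a rule: called genes, the largest folds in each direction at FPKM of at least 1, the most abundant genes, and Cd163, Vsig4, Spic, Ly6c2 and F13a1. Coordinates are GENCODE vM21 on GRCm38. Depth was estimated from single-exon genes longer than 1500 bases, keeping only estimates inside a fixed window. From each length 255 bases were taken off in the wheel running group and 250 in the sedentary group. Code was tested on simulated data. Of the listed symbols, Ahsp had no match.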

Additional observations from a re-analysis of the deposited data

How the results depend on the processing

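No paired analysis was possible because each group has only its pooled value. Leaving out single libraries was not run for the same reason, so a call that rests on 1 mouse could not be seen. The count of 2 called members was 0 with q under 0.01, 0 when the intervals of both groups had to lie apart and 0 when the log2 fold had to reach 1 in size. It was 3 with q under 0.1, which adds Hmox1, and 2 with q recomputed over genes with FPKM of at least 1. It was also 2 among calls whose test statistic reached 1.96 in size, a setting chosen after seeing the data. The 30 alternative medians and differences kept their sign and moved by less than 0.1 (log2). The tissue macrophage median ranged from 0.09 to 0.21, the monocyte median from -0.16 to -0.10 and their difference from 0.23, without the 5 tissue macrophage genes that stroma or endothelium also express, to 0.33, without S100a4 and Lgals3. Both of these settings for the difference were chosen after seeing the data. Of 204 alternative folds of members 6 had the opposite sign, all of genes near 0. Rescaled to the same total FPKM, Adgre1 turned to 0.040, Spic to 0.023 and Cd14 to 0.018, and to the same upper quartile they turned to 0.026, 0.0088 and 0.0034. In 9 members, among them Vsig4, Msr1, Folr2, Lyve1 and Csf1r, the interval reached over 40% of the FPKM to either side in at least 1 group.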
